A study of Drosophila melanogaster with 3 samples.

Results

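The Antennapedia complex is a cluster of homeobox genes on chromosome arm 3R of the fruit fly, and its peaks of tagged E(bx) are described here gene by gene. The 8 genes are lab, pb, zen, bcd, Dfd, Scr, ftz and Antp. All peaks were taken whose summit, the peak's highest point, lay from 10 kb before lab to 10 kb after Antp, a window of 358 kb (chr3R:6651427-7009228, dm6). The window was set by position and not by any measured value. It held 30 of the 9708 peaks of the authors' reproducible set, which was selected with the irreproducible discovery rate procedure (IDR). In the authors' other lists it held 98 of 30000 peaks called on the pooled libraries, 78 of 30000 in replicate 1, 64 of 28972 in replicate 2 and 111 of 30000 in replicate 3. In all, 50 annotated genes touched the window, 24 of them protein-coding.

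The material was 1 group, whole Drosophila melanogaster embryos of 0 to 16 h with both sexes pooled, from a transgenic line in which E(bx) carried GFP at its C terminus. Bound DNA was sequenced after chromatin immunoprecipitation of 3 biological replicates, each with its own biosample record. The free-text label gives an antibody against GFP and the antibody field reads E(bx), and the labels do not say whether untagged E(bx) was still made. There was no second genotype, age or antibody, so nothing was compared between conditions and no test was run. The lists hold no read totals, so depth is unknown, and control data were not analysed here. In whole embryos a weak peak can come from few cells or from little binding per cell, and these cannot be told apart.

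Hox genes encode homeodomain transcription factors that give body segments their identity along the head-to-tail axis. In the fly the cluster is split into the Antennapedia complex, which serves the head and anterior thorax, and the Bithorax complex, which serves the posterior thorax and abdomen. E(bx), whose name stands for enhancer of bithorax, is the largest subunit of the nucleosome remodelling factor NURF, and NURF is known to be needed for Hox gene expression. The GAGA factor, a DNA-binding protein that recruits NURF at some promoters, recognises short GAGAG repeats.

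The sequences that carry the results at promoters are the summit regions of lab, bcd and both Scr start sites, shown because every summit at a member's start site held the letters GAGAG. They were read from the RefSeq Release 6 genome on the strand of the gene, 100 bp to each side of the summit with transcribed untranslated bases left out. Capitals mark GAGAG on either strand, so that CTCTC is the same motif. The lab region is chr3R:6678591-6678781, the bcd region chr3R:6759601-6759801, the region at the inner Scr start site chr3R:6848618-6848818 and that at the outer one chr3R:6849987-6850187, all minus strand.
lab promoter: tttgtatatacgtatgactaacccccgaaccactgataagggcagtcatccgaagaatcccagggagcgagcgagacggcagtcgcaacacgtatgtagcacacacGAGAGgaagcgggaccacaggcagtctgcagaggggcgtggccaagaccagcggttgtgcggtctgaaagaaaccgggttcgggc
bcd promoter: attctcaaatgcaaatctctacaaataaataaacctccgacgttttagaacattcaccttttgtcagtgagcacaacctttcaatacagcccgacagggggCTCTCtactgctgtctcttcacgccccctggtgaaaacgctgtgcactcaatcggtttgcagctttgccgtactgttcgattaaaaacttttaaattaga
Scr inner promoter: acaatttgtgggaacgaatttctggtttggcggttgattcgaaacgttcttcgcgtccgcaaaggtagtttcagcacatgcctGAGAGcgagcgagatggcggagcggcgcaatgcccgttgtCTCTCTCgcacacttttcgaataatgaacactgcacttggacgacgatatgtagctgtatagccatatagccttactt
Scr outer promoter: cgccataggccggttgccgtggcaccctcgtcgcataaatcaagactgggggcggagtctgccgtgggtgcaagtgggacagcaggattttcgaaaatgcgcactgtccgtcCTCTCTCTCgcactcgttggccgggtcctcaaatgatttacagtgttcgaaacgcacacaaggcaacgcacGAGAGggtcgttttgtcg

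The peak between CG1307 and twr, in the margin beyond lab, is shown for contrast because it held GGTCACAC, the letters of Motif 1 that the factor M1BP binds, and no GAGAG. It is chr3R:6657699-6657881 on the plus strand, and capitals mark GGTCACAC, here as its reverse complement.
CG1307 and twr promoter: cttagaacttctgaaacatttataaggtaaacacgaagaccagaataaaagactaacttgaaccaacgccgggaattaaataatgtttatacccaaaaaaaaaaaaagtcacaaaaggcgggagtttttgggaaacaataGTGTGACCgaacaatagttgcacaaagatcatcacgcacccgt

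Away from start sites, 5 summits shared the letters ACTGCTTG, which were noticed only after these sequences had been read. The printed regions with capitals at ACTGCTTG on either strand are the intron of lncRNA:CR42721 (chr3R:6768348-6768548), the interval between that gene and Dfd (chr3R:6780144-6780344), the interval upstream of Scr (chr3R:6854361-6854561) and the interval downstream of ftz (chr3R:6870931-6871131), all on the plus strand.
lncRNA:CR42721 intron: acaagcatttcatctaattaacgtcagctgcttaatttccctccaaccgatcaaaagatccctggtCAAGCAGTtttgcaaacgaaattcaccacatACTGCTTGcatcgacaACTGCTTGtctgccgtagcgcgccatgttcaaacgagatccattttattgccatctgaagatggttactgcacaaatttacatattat
upstream of Dfd: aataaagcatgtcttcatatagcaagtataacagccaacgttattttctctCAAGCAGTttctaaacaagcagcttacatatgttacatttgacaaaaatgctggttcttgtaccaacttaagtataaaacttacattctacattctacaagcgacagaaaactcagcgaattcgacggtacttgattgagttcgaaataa
upstream of Scr: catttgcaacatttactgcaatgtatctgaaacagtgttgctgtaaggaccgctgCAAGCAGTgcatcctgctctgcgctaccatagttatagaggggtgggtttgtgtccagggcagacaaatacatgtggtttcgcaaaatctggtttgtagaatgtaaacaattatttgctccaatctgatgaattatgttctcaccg
downstream of ftz: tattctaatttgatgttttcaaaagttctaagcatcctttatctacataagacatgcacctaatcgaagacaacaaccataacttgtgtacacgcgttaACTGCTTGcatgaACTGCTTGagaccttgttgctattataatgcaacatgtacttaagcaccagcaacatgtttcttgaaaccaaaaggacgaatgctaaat

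The strong peak in an Antp intron (chr3R:6912239-6912439, plus strand) is shown because it held AGGTGGCGC, a core of the binding motif of the insulator protein CTCF, again looked for only after the data had been seen. Capitals mark it, on the reverse complement.
Antp intron: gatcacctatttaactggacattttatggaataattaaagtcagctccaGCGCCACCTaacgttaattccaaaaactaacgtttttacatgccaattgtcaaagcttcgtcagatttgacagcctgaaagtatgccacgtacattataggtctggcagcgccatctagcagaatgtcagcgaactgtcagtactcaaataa

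Within the complex, tagged E(bx) was found at the start sites of lab, pb, bcd and Scr and not at those of zen, Dfd, ftz and Antp in the reproducible set. A promoter peak was counted where a summit lay within 500 bp of any annotated start site of the gene. By this rule 4 of the 8 members had one, against 50.3% of the 13945 protein-coding genes. The whole pooled list added Antp, giving 5 of 8 against 61.5%. The best 9708 peaks of each library gave 5 of 8 against 50.3% in replicate 1, 5 of 8 against 50.3% in replicate 2, and 4 of 8 against 49.0% in replicate 3. The members' share therefore lay close to that of all protein-coding genes in each list and set the complex apart in none, and Dfd was the gene that came and went between libraries.

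**Figure D1:**
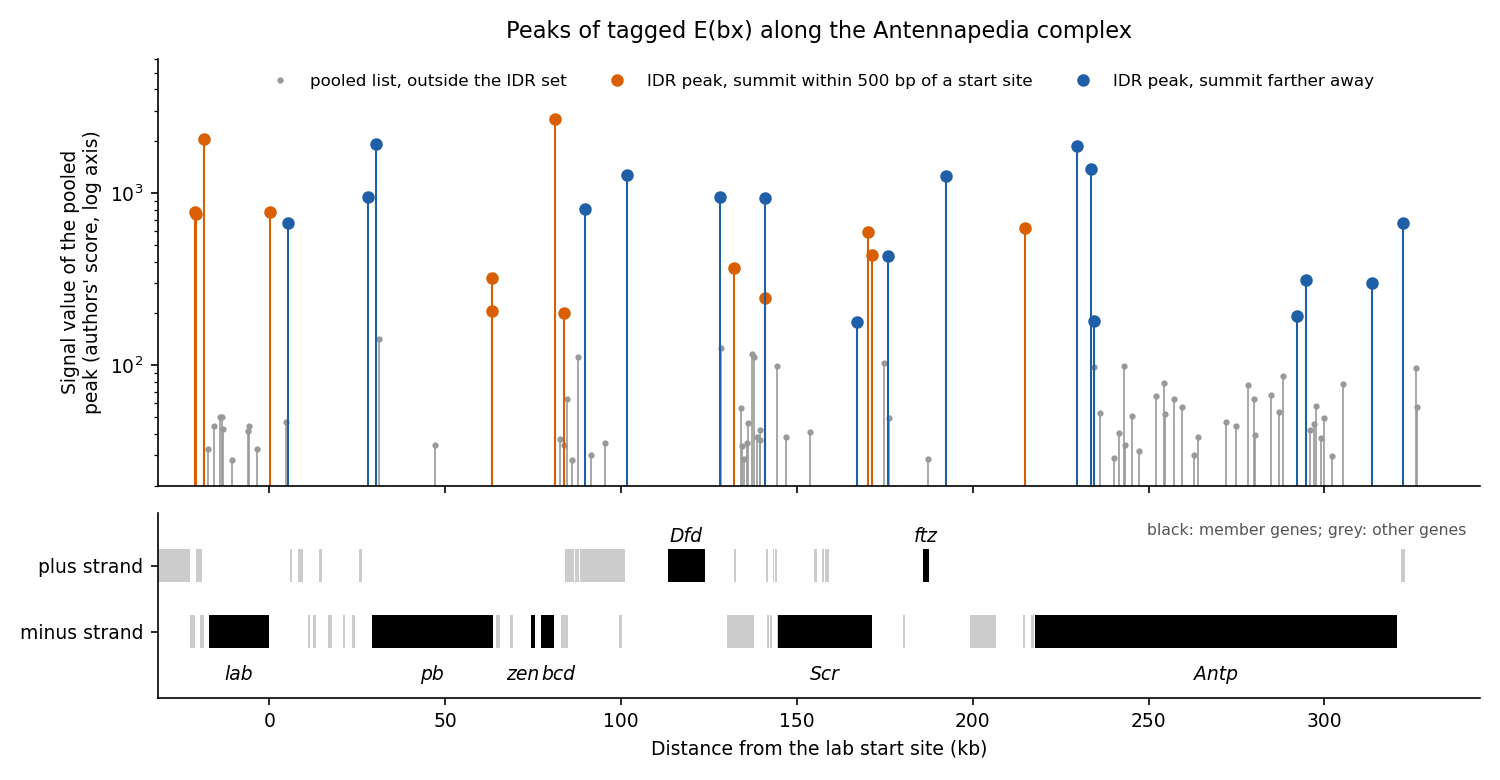
Peaks along the window by distance from the lab start site (kb). The upper panel gives the signal value of each pooled peak on a log axis (authors' score), with the 30 reproducible peaks as large points, orange for the 13 within 500 bp of a start site and blue for the 17 farther away, and weaker pooled peaks in grey; the lower panel shows the 8 member genes in black and other genes in grey. The highest point is bcd at 2682, and the longest stretch without a reproducible peak, 57.8 kb, lies within Antp.

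Among the head Hox genes, lab is needed in an anterior head segment and in the midgut, pb for the adult mouthparts, and Dfd for the mandibular and maxillary segments. The gene lab (FBgn0002522, chr3R:6661427-6678590, minus strand) had a single promoter peak, 91 bp upstream of its outer start site. Its signal value, the authors' score on a scale that is not stated, was 775 in the pooled list, and 185, 306 and 281 in replicates 1, 2 and 3. Because the lists differ in scale, ranks within a list were compared: lab stood at rank 3699, 2606 and 3524 of the libraries' lists, or at the top 11.0% ± 1.78 (SD, n = 3). The summit lay 75, 93 and 101 bp upstream in the 3 libraries, so its place differed by less than 30 bp. The inner lab start site had no reproducible peak, and the pooled list held only a weak summit there, with a signal value of 44.6 at rank 20527.

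The gene pb (FBgn0051481, chr3R:6707800-6742063, minus strand) had a pair of reproducible summits just downstream of its only start site. The stronger, 282 bp downstream, had a signal value of 322 in the pooled list and 59.4, 102 and 178 in replicates 1, 2 and 3, at ranks 7639, 6744 and 5689. The weaker, 59 bp downstream, had 208 in the pooled list and ranks 8835, 9869 and 7996. Both were thus among the weaker reproducible peaks, and replicate 2 ranked the weaker one below its best 9708. The strongest summit inside pb lay near the far end of the gene instead. Its nearest start site was that of Ccp84Aa, 4967 bp away, so it is called the pb intronic peak by position only. That intronic summit had a signal value of 1916 in the pooled list, rank 256, with 693, 827 and 435 in replicates 1, 2 and 3. It stood at ranks 158 and 159 in replicates 1 and 2 but at 1406 in replicate 3.

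The gene Dfd (FBgn0000439, chr3R:6791836-6802428, plus strand) had no summit within 500 bp of its start site in the reproducible set, the pooled list or replicate 3. Replicates 1 and 2 each had a summit 262 bp upstream of it, at the same base, with signal values of 106 and 135. They stood at ranks 5695 and 5732, the top 19.0% and 19.8% of those lists, and had each list's highest −log10 q-value, 4.36 and 4.29. That value is a ceiling shared by weaker peaks, such as the stronger pb promoter summit at ranks 7639 and 6744, and does not single them out. The nearest summit lay 11330 bp from it in the pooled list and 11328 bp from it in replicate 3. Of the 8816 peaks shared by the best 9708 of replicates 1 and 2 across the genome, 188 (2.13%) likewise had no pooled summit within 200 bp, and 158 of these had none in replicate 3. Dfd was the only such case among the 28 shared peaks of the window. It therefore had peaks in 2 of 3 libraries at about the rank of the outer Scr promoter peak, and why the pooled list lacked them was not tested.

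Of the trunk Hox genes, Scr specifies the labial and prothoracic segments and Antp the mesothorax, the segment of the second pair of legs. The gene Scr (FBgn0003339, chr3R:6823120-6849981, minus strand) had a peak at each of its start sites. The peak 213 bp upstream of the inner start site had a signal value of 592 in the pooled list and 148, 219 and 252 in replicates 1, 2 and 3, at ranks 4537, 3920 and 4072. The peak 106 bp upstream of the outer one had 437 in the pooled list and 119, 136 and 188 in the libraries, at ranks 5275, 5686 and 5436. The inner peak ranked higher in all 3 libraries, at the top 14.1% ± 0.908 against 18.4% ± 1.06 for the outer one (SD, n = 3 each), and the ranges did not overlap. A weak intronic summit with a signal value of 177 was the lowest of the window.

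The gene Antp (FBgn0260642, chr3R:6896253-6999228, minus strand) is 103 kb long, the longest member, and none of its 3 start sites had a reproducible peak. Its body held 6 reproducible summits all the same. Per 10 kb of gene body this came to 0.583 summits, against 0.876 in pb and 0.745 in Scr. The pb and Scr figures include summits at their own start sites. Only 1 body summit in pb and 1 in Scr lay over 500 bp from those, against all 6 in Antp. The strongest had a signal value of 1864 in the pooled list, rank 294, with 656, 765 and 439 in replicates 1, 2 and 3. It lay in an annotated 3′ UTR within the Antp gene body and is called the Antp 3′ UTR peak below by position only. Its place in the order was 193 and 218 in replicates 1 and 2 but 1368 in replicate 3. The next, the intronic peak whose sequence is given above, had 1382 in the pooled list, with 390, 553 and 478 in the libraries and ranks of 1071, 715 and 1041. The other 4 were weaker, with pooled signal values of 179 to 314. The 2 strongest summits and the one with 179 also lie inside CG46458, a gene annotated on the same strand, so they cannot be assigned to Antp alone.

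At the Antp start sites the pooled list held weak summits only. The strongest, 165 bp upstream of the innermost start site, had a signal value of 78.6, rank 14064 and a −log10 q-value of 2.50. The middle start site had one 272 bp upstream with 63.3, and the outermost had none in the pooled list or replicate 2. The middle start site is also that of CG46458, so summits there cannot be assigned to Antp alone. The strongest summit at any Antp start site stood at 44.0%, 52.8% and 55.3% of the lists of replicates 1, 2 and 3, at the innermost start site in replicates 1 and 3 and the middle one in replicate 2. These summits lay in the part of the lists that is meant to include background. The nearest reproducible peak lay 1803 bp upstream of the outermost start site, with a pooled signal value of 666.

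The homeobox genes zen, bcd and ftz descend from Hox genes but no longer act as such: zen patterns the dorsal extraembryonic tissue, bcd supplies the maternal anterior morphogen, and ftz is a pair-rule segmentation gene. The gene bcd (FBgn0000166, chr3R:6755842-6759466, minus strand) had the strongest peak of the window, 235 bp upstream of its only start site. The pooled list gave it a signal value of 2682, and the libraries 875, 1005 and 824 for replicates 1, 2 and 3. It stood at rank 46 in the pooled list and at ranks 63, 66 and 33 in the libraries, or the top 0.183% ± 0.0635 (SD, n = 3), with summits 234, 234 and 235 bp upstream. The value lay above 99.3% of the 7018 protein-coding genes with a promoter peak, whose median was 834. The other members with a promoter peak all lay below that median, lab above 45.5% of those genes, Scr above 30.5% and pb above 12.01%.

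No list held a summit within 500 bp of the start site of zen (FBgn0004053, chr3R:6752864-6754194, minus strand) or of ftz (FBgn0001077, chr3R:6864324-6866244, plus strand). The reproducible peak nearest to the zen start site was the bcd peak, 5507 bp away. The one nearest to ftz lay 6707 bp downstream of its start site, with a signal value of 1250 in the pooled list and 387, 479 and 383 in replicates 1, 2 and 3. A pooled summit 1633 bp downstream, inside the short gene, had a signal value of 28.4, near the foot of the list at rank 29434.

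**Figure D2:**
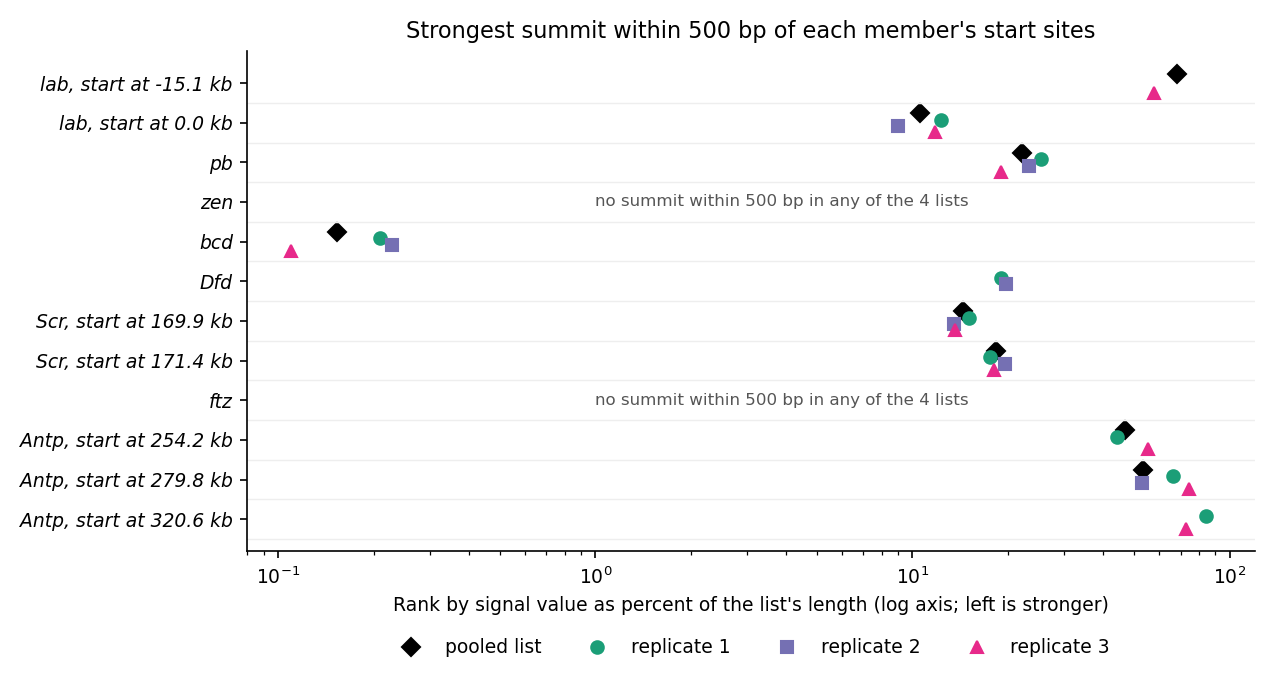
Rank by signal value, as percent of the list's length (log axis, left is stronger), of the strongest summit within 500 bp of each member start site, in genome order with start sites named by their distance from that of lab. Symbols give the pooled list and the 3 libraries. The bcd points sit between 0.11 and 0.228%, those of lab's outer start site, pb and Scr between 8.99 and 25.5%, Dfd has points for replicates 1 and 2 only, and those of Antp lie beyond 44.0%.

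Among the 4 members with a reproducible promoter peak, the order was the same in each library: bcd, then lab, Scr and pb. Dfd, at ranks 5695 and 5732 of replicates 1 and 2, stood between Scr and pb there and was absent from replicate 3. The ranges of neighbours in that order did not overlap, with lab at 8.99 to 12.3% of the list, the inner Scr peak at 13.5 to 15.1% and the stronger pb peak at 19.0 to 25.5%. These peaks were selected as reproducible in the same libraries, so the steady order is a description and was not tested. The outer Scr peak, at 17.6 to 19.6%, overlapped with pb, as did Dfd at 19.0% and 19.8% in replicates 1 and 2. By role, 2 of 3 head Hox genes, 1 of 2 trunk Hox genes and 1 of 3 non-Hox homeobox genes had a reproducible promoter peak, against 50.3% of all protein-coding genes. Groups this small do not set a role apart from that share.

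The genes between the members were mostly without a peak. The Ccp84A genes and Edg84A between lab and pb encode cuticle proteins. Of these 8, 0 had a promoter summit even in the pooled list, where 61.5% of all protein-coding genes had one. A reproducible peak with a signal value of 673 lay just outside the limit, at -571 bp from the Edg84A start site. Both microRNA genes, mir-10 and mir-993, had none, nor had zen2, the diverged neighbour of zen. Ama, which encodes a secreted immunoglobulin-domain protein, shared a weak peak with lncRNA:CR45593, with a signal value of 200.8. Among non-coding genes, 3 of 18 long non-coding RNA genes and 1 of 4 tRNA genes had a promoter peak. Of all 50 genes, 12 had one, and of the 24 protein-coding genes, members included, 8, against 50.3% of all protein-coding genes. Genome-wide shares for non-coding genes are not given here, so their counts are not set against a background. In the margin beyond lab, agt, which encodes a DNA alkyltransferase, had the strongest promoter peak after bcd, with a signal value of 2056 at rank 184, and the divergent pair CG1307 and twr had 776 and 751.

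The peaks of the complex were divided between start sites and places farther away. Of the 30 summits, 13 (43.3%, 95% Wilson interval 27.4 to 60.8, counting error only) were within 500 bp of a start site, against 10 of 33 (30.3%) in the Bithorax complex, taken with the same margins around Ubx, abd-A and Abd-B, and 7196 of 9708 (74.1%) in the whole set. With a limit of 1000 bp the share in the Antennapedia complex was 53.33%. From lab to Antp without the margins it was 10 of 26 (38.5%) at 500 bp. Of its 17 summits over 500 bp from a start site, 8 were intronic and 7 intergenic, with 1 in a 3′ UTR, 1 in a non-coding exon and 0 in coding sequence. The 2 Hox clusters thus both had a smaller share of summits at start sites than the set as a whole. Peaks were about as dense as elsewhere, with 83.8 per Mb in the Antennapedia complex, against 98.3 in the Bithorax complex and 72.5 over the 6 chromosome arms.

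The distal peaks of the complex had high signal values. Their median pooled signal value was 804, against 592 for its start site peaks, while over the whole set the order was the other way round, with 311 for distal and 614 for start site peaks. In the Bithorax complex the medians were 587 for distal and 359 for start site peaks. From lab to Antp without the margins, the medians were 871 for distal and 401 for start site peaks. Of the 17 distal peaks, 13 lay above the median of all distal peaks and 11 above that of all start site peaks. Those 11 include summits just past the 500 bp limit, at -502, -571 and 539 bp from a start site, with signal values of 938, 673 and 666. The summit at -502 bp lies in nearly the same called region as the start site summit of tRNA:Lys-TTT-2-1, which had 246. This region thus counts once in each class. Of the 13 start site peaks, 6 lay above the median of all start site peaks. These include the peaks of agt and of the CG1307 and twr pair, which lie in the margin beyond lab. These are descriptions of peaks that share the same libraries, and no test was made of them.

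**Figure D3:**
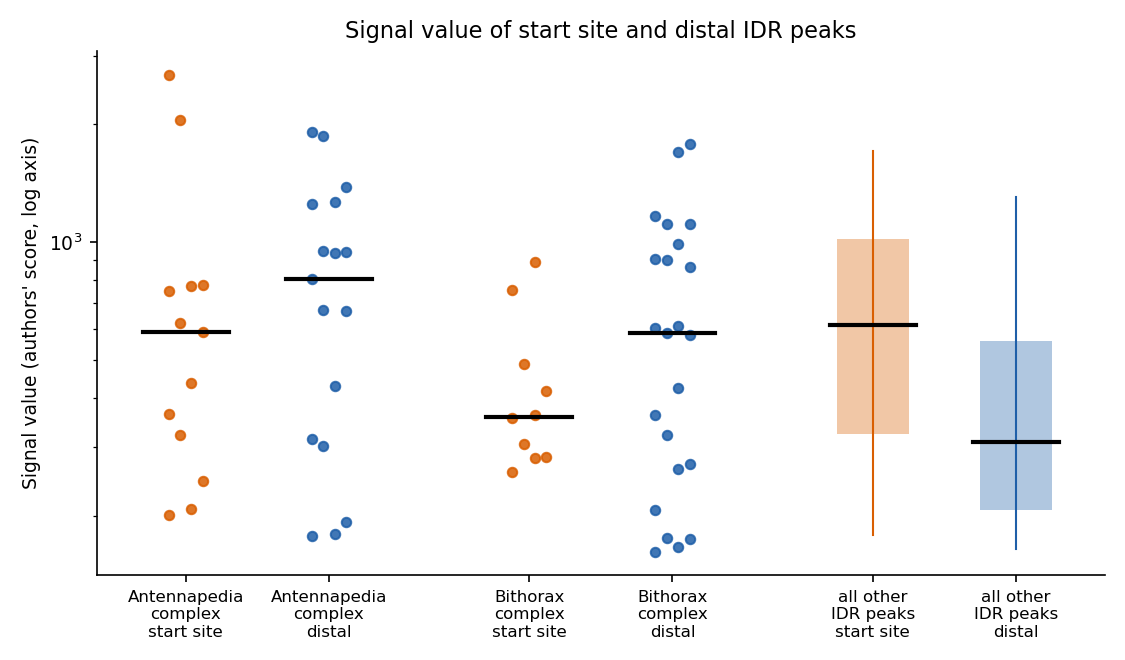
Signal value in the pooled list (authors' score, log axis) of reproducible peaks at start sites (orange) and farther away (blue). Points are the peaks of the Antennapedia and Bithorax complexes, boxes the quartiles of the peaks outside both with lines from the 5th to the 95th percentile, and black bars the medians. The distal median of the Antennapedia complex is 804 and its start site median 592, against 309 and 616 for all peaks outside both complexes.

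Between the peaks, some long stretches held no reproducible peak. The longest, 57.8 kb, lay within Antp and exceeded 95.1% of the intervals between neighbouring summits on 3R, whose median was 4.21 kb. It was picked as the longest of the window, and weaker pooled peaks lay inside it. The next was a 32.7 kb stretch within pb (longer than 90.3%). Stretches of 26.6 kb around Dfd, 26.2 kb over most of Scr and its tRNA neighbours, and 22.6 kb over the cuticle protein genes followed. The median interval of the window was 6.14 kb. Weak pooled peaks outside the reproducible set numbered 68, and 9 of them (13.2%) lay at start sites, against 25.6% of all 20291 such peaks. Of all pooled summits of the window, 36 lay in the body of Antp.

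The peaks were found again in the single libraries about as often as those of the whole set, from which they were called. All 3 libraries had a summit within 200 bp among their best 9708 for 22 of 30 peaks (73.3%, Wilson interval 55.6 to 85.8), against 77.1% over the set. Another 6 were matched in 2 libraries, 2 in 1 and 0 in none. For distal peaks the counts were 13 of 17 (76.5%) against 59.8% over the set, and for start site peaks 9 of 13 (69.2%) against 83.1%. With the whole lists of the libraries in place of their best 9708, 88 replicate summits were matched. They lay a median of 7 bp from the reproducible summit, 68 of them within 20 bp and the farthest 170 bp away.

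Several strong distal peaks ranked lower in replicate 3 than in the other libraries. Among the 7481 peaks matched in all 3 libraries, the pb intronic peak ranked 156 and 157 in replicates 1 and 2 and 1412 in replicate 3. The Antp 3′ UTR peak ranked 192, 216 and 1374, and the peak downstream of ftz 1095, 1070 and 2003. The bcd promoter ran the other way, with ranks of 63, 66 and 33. Counted over the window, 7 of 13 distal peaks (53.8%) and 1 of 9 start site peaks (11.1%) ranked lower in replicate 3 than in both other libraries, against 49.2% of all distal and 36.9% of all start site peaks. The same lean of replicate 3 away from distal peaks was thus present across the set, and its source was not tested.

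**Figure D4:**
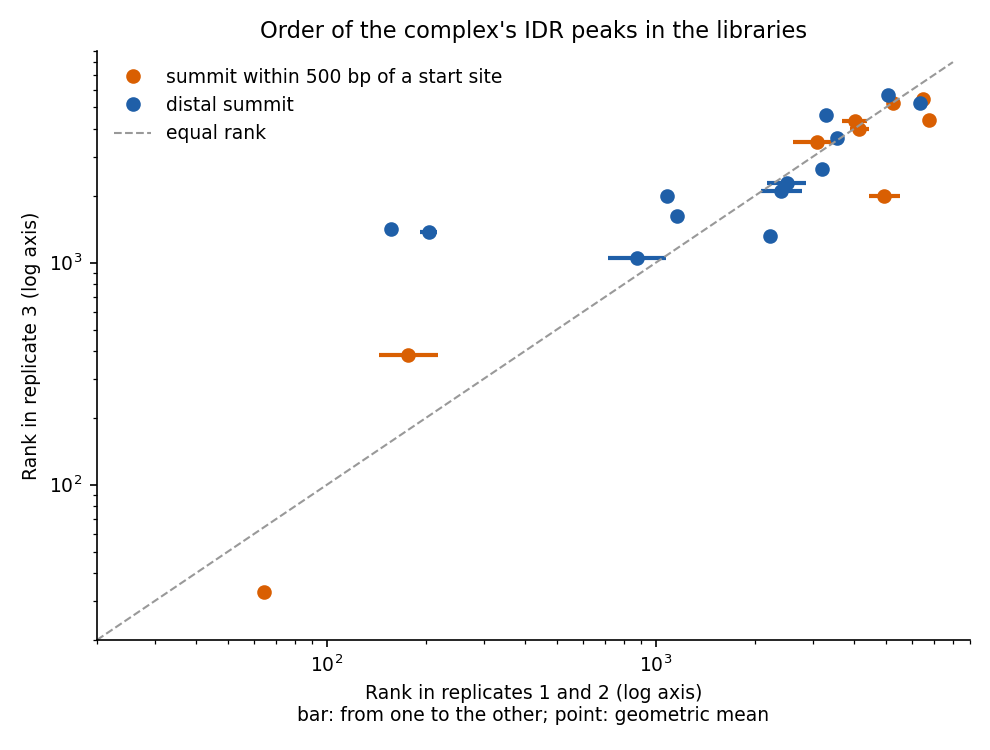
Rank in replicate 3 against rank in replicates 1 and 2 (log axes) for the 22 peaks of the complex matched in all libraries, ranked among all 7481 such peaks. Each bar runs between the ranks in replicates 1 and 2, with a point at their geometric mean. Above the dashed line of equal rank a peak is weaker in replicate 3, as for the blue points near rank 156 and 192, which reach 1412 and 1374.

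The promoter summits of the members shared GAGAG. The letters were present within 100 bp of 6 of 6 summits at member start sites, and in all 6 the nearest match was centred within 20 bp of the summit. Among all other start site summits the shares were 23.5% and 7.20% (7183 summits). The members' regions were richer in G and C, with a median of 49.3% against 38.8%, and among the 2223 other start site summits within the members' range of GC content the shares were 40.4% and 14.1%. The 6 summits come from 4 genes, the 2 pb summits lying 223 bp apart. Of the other 7 start site summits in the window 2 held GAGAG, and the start site summits of abd-A and Abd-B in the Bithorax complex held it in 3 of 3 cases, 1 within 20 bp. Over all annotated promoters of 300 bp the share was 32.4%. GAGAG was chosen with earlier results of these data known, so these shares are descriptions and were not tested.

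GGTCACAC, which marks many housekeeping promoters, lay at summits in the margin beyond lab and at none of the members' start sites. It was found at 3 of 13 start site summits of the window, those of agt and of the CG1307 and twr pair, and at 0 of 6 member summits, against 11.6% of all other start site summits. TATCGATA, bound by DREF, and CAGGTAG, bound by Zelda, were found at 0 of 30 summits, against 9.55% and 0.858% of all other peaks. Shares over all peaks mix start site and distal summits, and the window holds a larger part of distal ones than the set. By class, TATCGATA was found at 12.3% of other start site summits and 1.72% of other distal summits. CGATA, the core bound by BEAF-32 and contained in TATCGATA, was found at 6 of 30 (20%) against 40.8%. It was found at 3 of 13 start site summits against 46.7%, and at 3 of 17 distal summits against 23.6%. GCCAT, the core bound by the Polycomb recruiter Pho, was found at 14 of 30 (46.7%) against 31.2%, TGAGTG of Zeste at 4 (13.3%) against 9.90%, and the homeodomain core TAATTA at 3 (10%) against 11.6%. By class, GCCAT was found at 7 of 13 start site summits against 29.8%, and at 7 of 17 distal summits against 35.2%. For TGAGTG these were 2 of 13 against 8.41% and 2 of 17 against 14.2%. For TAATTA they were 0 of 13 against 12.8% and 3 of 17 against 8.14%. The shares over all promoters were 5.77% for GGTCACAC, 6.92% for TATCGATA, 1.67% for CAGGTAG, 43.7% for CGATA, 40.9% for GCCAT, 13.8% for TGAGTG and 18.8% for TAATTA.

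Distal summits were searched in the same way. GAGAG was found at 4 of 17 (23.5%), against 40.6% of other distal summits, 27.1% of the 623 strongest of them and 12 of 23 in the Bithorax complex. ACTGCTTG, the letters noticed in the sequences above, was found at 5 of 17 (29.4%), against 4.05% of 2495 other distal summits and 1.56% of other start site summits. In all promoters, searched over the longer 300 bp, the share was 1.18%. Of those 5 peaks the lncRNA:CR42721 intron held 3 matches and the peak downstream of ftz 2, and the remaining peak was that in the Antp 3′ UTR. The nearest match lay 0.5 bp from the summit in the intron and 2.5 bp from it at ftz. It lay at -45.5 bp upstream of Dfd, -41.5 bp upstream of Scr and -35.5 bp in the 3′ UTR, on the side of lower coordinates. Among the 623 strongest of the other distal summits the share was 7.22%, against 0.482% in windows 1000 bp to their right. The Bithorax complex held it at 1 of 23 distal summits. In the peak upstream of Dfd the match shares 1 base with a GAGAG match.

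The CTCF core AGGTGGCGC was found at 1 of 17 distal summits, that of the Antp intron, or 5.88%, against 3.01% of other distal summits, 8.35% of the 623 strongest of them and 2 of 23 in the Bithorax complex. In windows 1000 bp to the right of the other distal summits the share was 0.200%. Both of these words were chosen after the data had been seen, and the other motifs with earlier results of these data known. The counts of all of them are therefore descriptions. A match shows letters in the window and not that a factor was bound.

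**Figure D5:**
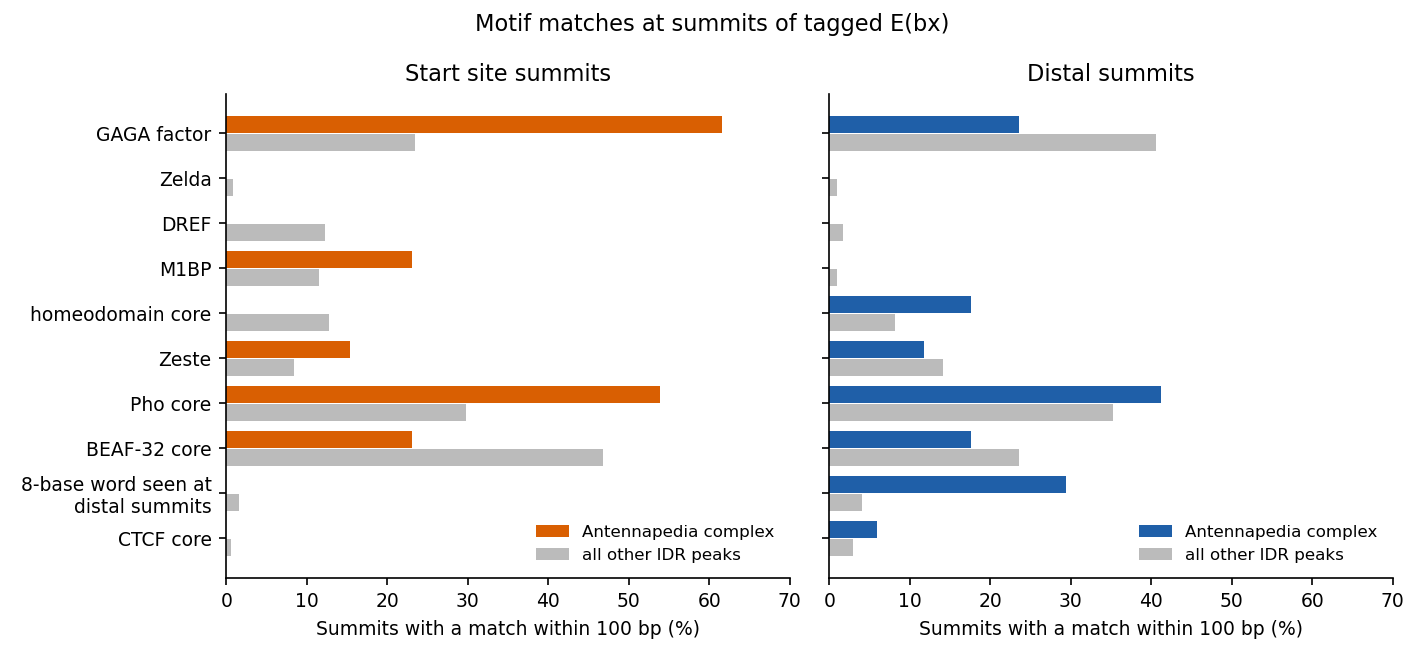
Percent of summits with a motif match within 100 bp, for start site summits (left, orange, 13 in the Antennapedia complex) and distal summits (right, blue, 17), with all other reproducible peaks in grey below each bar. GAGAG of the GAGA factor reaches 61.5% at the start site summits of the complex against 23.5% of others, and the 8-base word noticed at distal summits 29.4% against 4.05%.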

How the data were processed

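Tagged E(bx) was mapped in 3 libraries of 1 group, grouped and numbered by the labels' biological replicate numbers. Per the labels' protocols, sonication gave DNA of 200 to 800 bp. The deposited files used were dm6 peak lists: 1 per replicate, 1 on pooled libraries and the IDR set. The authors called them from alignments with a control, per the records deposited beside the files. Their aligner, caller, settings and IDR threshold, not given in the sources used here, cannot be named. Replicate lists are relaxed inputs to IDR and include background. The signal value deposited by the authors is a score of unstated scale, so ranks within a list were compared. The deposited −log10 q-value was 4.39 for all IDR peaks and ranked none. Depth per library is unknown, and intervals cover counting error only.

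The summit is the deposited start plus offset. It was set against the gene models of Ensembl release 115 and the Release 6 sequence, in which 8 of 8 members had the same coordinates as in RefSeq's gene table and 0 of 128678 peaks passed the end of an arm. Start site peaks had a summit within 500 bp of any start site. Replicates were matched within 200 bp through their best 9708 peaks. Both strands of the 201 bp around each summit were searched for motifs. Promoter shares came from 250 bp before to 50 bp after each annotated start site, computed from the genome because no promoter table was used here. The members, lists and motifs were chosen with earlier results of these data known, and no test was run. The named genes are all 8 members, the fixed neighbours zen2, Ama, the Ccp84A genes, Edg84A, mir-10 and mir-993, every other gene with a start site at an IDR summit, and Ubx, abd-A and Abd-B; CG46458 and the genes locating distal peaks were added after their values were seen. Alternatives were other windows, margins, matching distances, list lengths, motif windows and leaving out each replicate, meaning the IDR peaks matched in both others. Scripts ran in Python 3.11.15 (pandas 2.3.3, scipy 1.17.1) and were tested on simulated data. The dm3 lists were not used.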

Additional observations from a re-analysis of the deposited data

How the results depend on the processing

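No paired analysis was possible because all replicates belong to 1 group. Of the alternatives to the counts and shares named in the design, 42 left the value within 1.5 times or within its counting interval and 12 moved it. The window held 18 peaks among the 4854 strongest of the set and 98 in the whole pooled list, of which 22.45% were at start sites; longer and shorter lists hold more and fewer peaks by construction. With motifs sought 50 bp to each side, GGTCACAC was found at 1 summit, TAATTA at 0, TGAGTG at 2, GCCAT at 9 and CGATA at 2. With 200 bp to each side CAGGTAG was found at 1, TAATTA at 8, TGAGTG at 8 and CGATA at 10, shorter and longer windows holding fewer and more letters by construction. AGGTGGCGC was found at 0 distal summits with 50 bp to each side. Leaving out a replicate kept 23 to 25 peaks, of which 39.13 to 45.83% were at start sites, and 4 of 8 members with a promoter peak each time, against 47.1 to 48.4% of protein-coding genes. Members with one numbered 4 at 250 bp (45.3% of protein-coding genes), 4 at 1000 bp (53.9%), 3 among the 4854 strongest peaks (37.8%) and at most 5 in the other lists (49.0 to 61.5%). Peaks matched in all libraries numbered 16 to 28. The share at start sites was 33.33% at 250 bp and 53.33% at 1000 bp. The median list position of the 4 member promoter peaks, the top 12.49% of the pooled list, was 11.26 to 13.73% in single libraries. With unknown depth, a gene without a peak was not detected at the authors' threshold and is not shown to lack E(bx).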

Other observations

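The 2 strongest distal peaks of the complex lay inside genes whose own start sites were weak or without a reproducible peak. The pb intronic peak had a signal value of 1916, against 322 for the stronger pb promoter summit, and the Antp 3′ UTR peak had 1864, against 78.6 for the strongest pooled summit at an Antp start site. In the Bithorax complex Ubx likewise had no reproducible promoter peak, and 2 summits in its body. Its only pooled summit within 500 bp of the start site, 15 bp downstream, had a signal value of 60.6, and replicates 1 and 2 had none there. The gene abd-A had a promoter peak with 490 and Abd-B with 280, above 22.7% and 9.42% of the protein-coding genes with one.

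The peak with the most GAGAG matches in the window was that at lncRNA:CR45915, near mir-10, with 14 matches, some of them overlapping, and a signal value of 365, at the top 24.9%, 26.4% and 14.9% of replicates 1, 2 and 3.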
